A study of Homo sapiens with 12 samples.

Results

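The SLC38 genes encode sodium-coupled neutral amino acid transporters and their relatives, and 9 of them were followed here through the probe sets that the platform annotation gives to exactly 1 symbol of the family. This gave 25 of the 54675 probe sets in the table and 9 of the 19775 genes. The annotation gave SLC38A10 7 probe sets, SLC38A1 and SLC38A7 4 each, SLC38A2 3, SLC38A4 and SLC38A9 2 each, and SLC38A3, SLC38A6 and SLC38A11 1 each. The family was chosen with earlier results of these arrays known, among them the low SLC38A4 values at the high nanoparticle dose. The contrast it was selected on is not stated; it was taken to be the high dose against medium, so values that involve the high dose are given as a description and nothing is supported with them.

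RNA came from Caco-2, a cell line from a human colon carcinoma whose cells come to resemble absorptive enterocytes once confluent. Silver ions, from silver nitrate (AgNO3), were given at a dose labelled as 0.5 µg/mL silver ions. Surfactant-coated silver nanoparticles (AgPURE) formed a dose series of medium alone, 2.5 µg/mL and 25 µg/mL. Each of the 4 groups had 3 arrays. All groups were passage 22 cells at 21 days after confluence, kept for 24 h in medium with an insulin, transferrin and selenium supplement and antibiotics. Nothing in the labels ties the arrays to separate flasks, so errors and p-values measure the spread between arrays, which may be technical. No group received the surfactant alone.

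As background, system A transporters (SLC38A1, SLC38A2 and SLC38A4) bring small neutral amino acids such as alanine and glutamine into the cell together with sodium. System N transporters, of which SLC38A3 is one, couple glutamine, histidine and asparagine transport to sodium and protons and can run in either direction. SLC38A7 and SLC38A9 sit in the lysosomal membrane, where SLC38A7 exports glutamine and asparagine and SLC38A9 reports arginine to the growth kinase complex mTORC1. SLC38A6, SLC38A10 and SLC38A11 are less well studied. Enterocytes use glutamine as a main fuel.

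The 3 system A genes neighbour each other on chromosome 12, in the order SLC38A1, SLC38A2, SLC38A4, with no other protein-coding gene between them in the RefSeq annotation of GRCh38.p14. Promoter windows (250 bases before to 50 after a transcript start listed in RefSeq, GRCh38.p14, minus strand, read 5′ to 3′) are shown for these genes. The reason is that SLC38A4 was lower and SLC38A2 higher than medium at the high dose in the authors' normalization. With arrays scaled on their poly-A controls, all 3 lay below medium (SLC38A1 -0.43, SLC38A2 -0.055, SLC38A4 -3.22). The representative probe set of SLC38A1 was past the threshold in neither. Capitals mark matches, on either strand, to the metal response core TGCNCNC, the heat shock pair GAANNTTC, the antioxidant response core TGACNNNGC or the ATF4 composite TGATGNAA. N stands for any base, so TGCNCNC is looser than the usual metal response core, TGCRCNC, where R is A or G. The SLC38A4 window is chr12:46825948-46826247, the SLC38A2 window chr12:46372724-46373023 and the SLC38A1 window, 1 of 2 listed starts, chr12:46266467-46266766. The SLC38A2 window holds the outermost start of its gene in RefSeq, and the SLC38A4 and SLC38A1 windows lie further inside theirs, at later starts.
SLC38A4: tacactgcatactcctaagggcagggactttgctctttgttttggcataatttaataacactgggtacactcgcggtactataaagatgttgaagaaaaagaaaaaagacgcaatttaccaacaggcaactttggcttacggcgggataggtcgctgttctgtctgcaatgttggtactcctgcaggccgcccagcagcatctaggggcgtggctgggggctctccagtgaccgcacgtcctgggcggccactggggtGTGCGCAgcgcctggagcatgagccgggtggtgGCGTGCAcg
SLC38A2: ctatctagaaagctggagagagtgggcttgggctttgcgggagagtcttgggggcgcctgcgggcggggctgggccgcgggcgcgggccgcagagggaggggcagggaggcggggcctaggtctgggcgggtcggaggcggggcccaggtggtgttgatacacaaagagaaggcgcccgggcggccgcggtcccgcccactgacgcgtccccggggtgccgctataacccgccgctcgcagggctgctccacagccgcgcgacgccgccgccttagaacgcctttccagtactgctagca
SLC38A1: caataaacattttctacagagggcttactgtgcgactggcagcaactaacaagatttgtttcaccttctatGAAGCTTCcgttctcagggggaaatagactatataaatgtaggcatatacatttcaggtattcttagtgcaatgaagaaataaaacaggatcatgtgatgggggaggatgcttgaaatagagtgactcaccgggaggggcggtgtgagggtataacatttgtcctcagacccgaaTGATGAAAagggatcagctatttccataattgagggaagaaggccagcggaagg
The SLC38A4 window held 2 metal response cores, at bases 9 and 42 relative to the listed start, and no other match. The SLC38A1 window held 1 heat shock pair and 1 ATF4 composite, and the window of the other SLC38A1 start held neither of these and 1 metal response core. The SLC38A2 window, with 72.0% G and C against a median of 58.7% over 35116 promoters and 55.0% for SLC38A4, held none of the 4 motifs, which says only that these letters are not in this window. Over the 12 promoter windows listed for 8 SLC38 genes, 7 held TGCNCNC, close to the 55.9% of all promoters. Some of these matches, such as TGCCCCC of SLC38A9 and TGCCCAC of SLC38A10, fall outside TGCRCNC, for which no share was counted. Among the 12 windows, 2 of SLC38A9 cover nearly the same bases. The heat shock pair and the ATF4 composite were each in 1 of the 12, that of SLC38A1, and in 6.77% and 3.62% of all promoters. The antioxidant response core was in 0 of the 12 and in 13.3% of all promoters. No 2 matches overlapped in the SLC38 windows.

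The 25 µg/mL arrays stood apart from the rest, with correlations across probe sets of 0.978 to 0.981 with every other group, against 0.990 to 0.996 among the other 9 arrays. Their poly-A control means were 5.56 to 6.31 on the log2 scale and those of medium 5.31 to 5.54, and their hybridization control means were 10.89 to 11.08 and those of medium 10.43 to 10.66. Scaling on these controls moved the median log2 difference of all genes between 25 µg/mL and medium to -0.62 and -0.44, against -0.012 in the authors' normalization, to which all directions below refer. All samples were labelled as the Caco-2 line, so the markers of other cell types given below were read in that line and are no count of such cells. In bulk RNA, fewer cells in a given state and less RNA per cell cannot be told apart. Of 8 epithelial and enterocyte markers, 6 lay above 4.75, the median of all values, in medium cells, and SI (3.56) and KRT20 (4.69) did not. The mean over these markers was 7.44 to 7.50 on the 25 µg/mL arrays and 8.001 to 8.086 on the medium arrays. Its members moved unevenly: FABP1 averaged 6.47 at 25 µg/mL and 8.06 in medium, and ALPI 4.56 at 25 µg/mL and 5.94 in medium. EPCAM averaged 13.02 at 25 µg/mL and 13.20 in medium. KRT20, the only marker of this list that was higher at the high dose, averaged 4.77 there and 4.69 in medium. The means over 7 fibroblast markers (5.85 to 5.96 at 25 µg/mL, 6.09 to 6.25 in medium) and 4 leukocyte markers (5.20 to 5.64 at 25 µg/mL, 5.85 to 5.96 in medium) were lower at the high dose, and that of 4 endothelial markers was higher (4.74 to 4.90 at 25 µg/mL, 4.50 to 4.64 in medium). Single markers moved unevenly: CDH5, which carried the endothelial mean, averaged 4.86 at 25 µg/mL and 3.90 in medium, and among the fibroblast markers PDGFRA averaged 9.16 at 25 µg/mL and 8.36 in medium, against 5.42 at 25 µg/mL and 7.27 in medium for COL3A1. The pan-leukocyte marker PTPRC lay at 3.96 at 25 µg/mL and 3.99 in medium, and CD3E at 4.61 and 4.64. The lower leukocyte mean came from LYZ (7.68 at 25 µg/mL, 8.99 in medium) and CD14 (5.22 at 25 µg/mL, 5.93 in medium). The part of these shifts in the SLC38 values was not tested.

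At the high nanoparticle dose SLC38A4 was far lower than in medium. Its neighbour SLC38A2 and the lysosomal exporter gene SLC38A7 were moderately higher, by 0.56 and 0.46 log2 units (a direction that poly-A scaling turns). SLC38A11 differed by -0.60, on values below the median of all values. The representative probe sets of the remaining members differed by at most 0.36 log2 units in either direction. In the fit over all genes, 3 of the 9 SLC38 genes were called above medium (SLC38A2, SLC38A6 and SLC38A7) and 3 below it (SLC38A3, SLC38A4 and SLC38A11). This is beside 14.1% of all genes called higher, 19.3% called lower and 33.4% called in all, and nothing is read from the count. Under poly-A scaling SLC38A2, SLC38A6 and SLC38A7 had differences below 0, and they were called neither there nor under hybridization scaling. The median log2 difference was -0.0077 over the 9 genes and -0.012 over all genes.

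SLC38A4, the system A member best known from liver, had log2 values of 4.12, 4.49 and 4.74 at 25 µg/mL and of 6.65, 7.21 and 7.31 in medium. Every high-dose array lay below every medium array. The log2 difference was -2.60 ± 0.22 (SE, n = 3 arrays a group), or 6.08-fold lower, rank 30 of 19775 genes by size of difference in either direction. The 25 µg/mL values were all below 4.75, the median of all values, and with no detection call the true fold is uncertain. Its other probe set, 1555345_at, was dim throughout, with 3.15, 3.07 and 3.23 at 25 µg/mL and 3.38, 3.70 and 4.10 in medium, and differed in the same direction by -0.57 ± 0.14. The mean over both probe sets gave -1.59.

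SLC38A2, the system A member known to be induced by amino acid shortage and hyperosmotic stress, had 12.70, 12.61 and 12.64 at 25 µg/mL and 12.18, 12.15 and 11.95 in medium. The ranges did not overlap, and the 3 high-dose arrays lay close together. The log2 difference was 0.56 ± 0.09 (SE), or 1.47-fold higher. It was -0.055 under poly-A scaling and 0.13 under hybridization scaling, and passed the threshold in neither. The other SLC38A2 probe sets, 218041_x_at and 220924_s_at, differed by 0.65 ± 0.10 and 0.66 ± 0.10, so the 3 probe sets had one direction and nearly one size. By Affymetrix naming, probe sets ending in _s_at or _x_at can share sequence with other transcripts.

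SLC38A1, a system A glutamine carrier, was read differently by its probe sets. The representative, 224579_at, had 11.33, 11.43 and 11.29 at 25 µg/mL and 11.17, 11.28 and 11.04 in medium. The lowest high-dose array lay just above the highest medium array, and the log2 difference of 0.18 ± 0.08 (SE) did not pass the threshold. Probe set 218237_s_at had 11.35, 11.42 and 11.30 at 25 µg/mL and 10.78, 10.73 and 10.64 in medium, a difference of 0.64 ± 0.09. Probe set 224580_at differed by 0.76 ± 0.21 and passed as well, and the dim 236857_at by -0.25 ± 0.12 and did not. The mean of the probe sets put SLC38A1 at 0.33 and the most variable one at 0.76, both past the threshold, and the representative passed with an intensity trend or with dim genes left out. Under poly-A and hybridization scaling the representative gave -0.43 and -0.25.

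**Figure D1:**
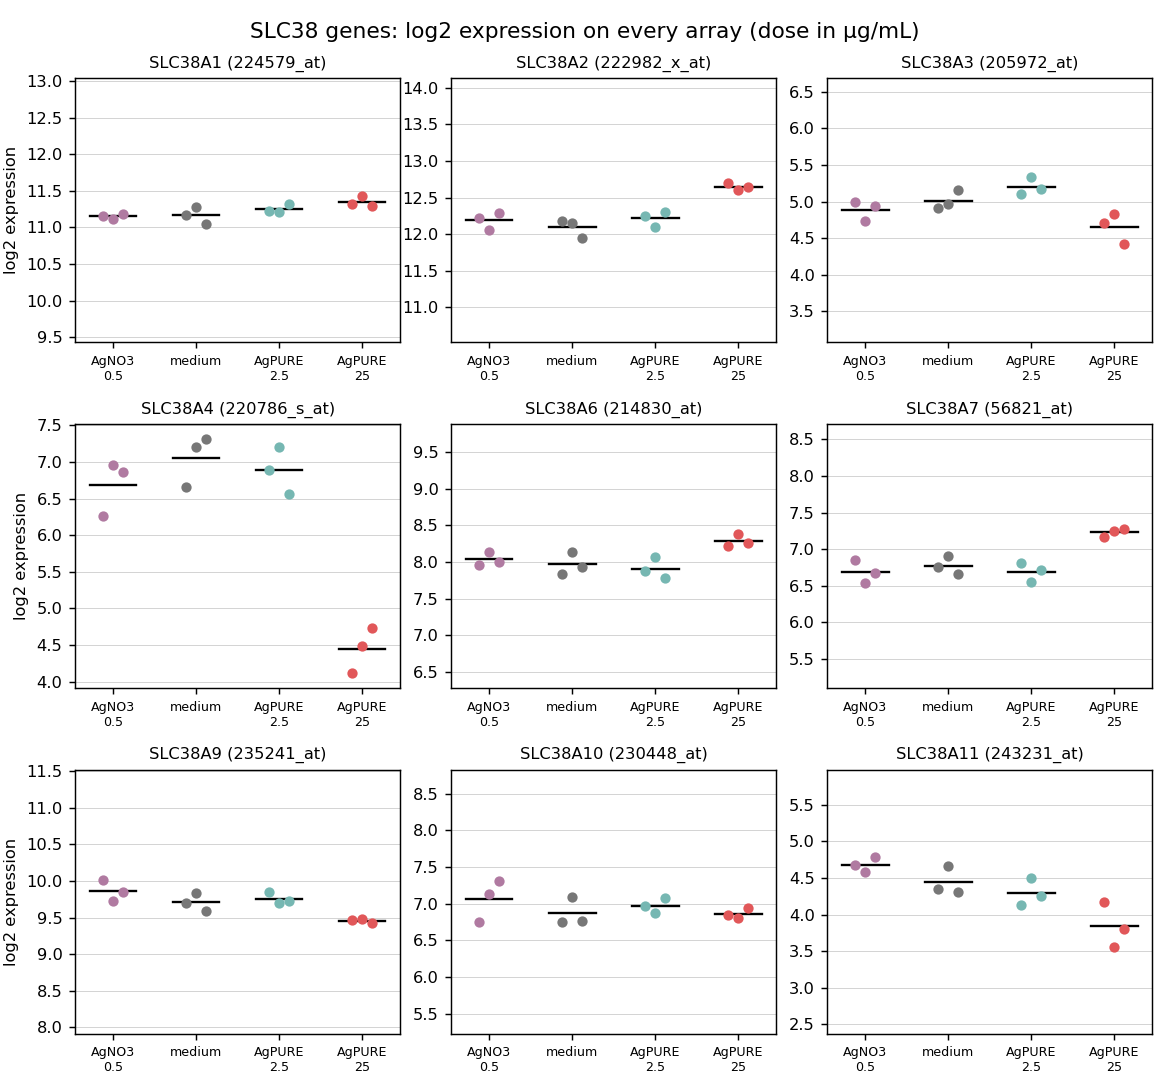
Log2 expression (y axis, the same span of 3.6 log2 units in each panel) of the representative probe set of each of the 9 SLC38 genes on every array, by group, with doses in µg/mL on the x axis; points are arrays and bars group means. SLC38A4 at 25 µg/mL lies between 4.12 and 4.74, below all other arrays, and SLC38A2 at 25 µg/mL lies above all others in the authors' normalization, where poly-A scaling gives -0.055 against medium.

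SLC38A3, the system N carrier known from liver, kidney and brain, was dim. Its log2 values were 4.71, 4.83 and 4.42 at 25 µg/mL and 4.91, 4.97 and 5.15 in medium, a difference of -0.36 ± 0.12 (SE) with ranges close to each other. It did not pass without medium replicate 3 (-0.29) or without 25 µg/mL replicate 3 (-0.24), nor in the fit with no moderation.

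Of the lysosomal pair, SLC38A7 had 7.16, 7.25 and 7.27 at 25 µg/mL and 6.75, 6.91 and 6.66 in medium. All 3 high-dose arrays were above the medium arrays, with a log2 difference of 0.46 ± 0.10 (SE). This became -0.16 under poly-A scaling and 0.03 under hybridization scaling, and passed the threshold in neither. Its 4 probe sets all lay higher at 25 µg/mL, by 0.46 to 0.68, and all 4 passed the threshold in the fit over probe sets. SLC38A9, the arginine sensor, had 9.47, 9.48 and 9.42 at 25 µg/mL and 9.70, 9.84 and 9.59 in medium on 235241_at. This difference of -0.25 ± 0.09 did not pass the threshold, although the ranges did not overlap; it passed without medium replicate 3 (-0.31) and, through the shared estimate of spread, without ion replicate 1 or 2 (-0.25). Its second probe set, 243709_at, differed by 0.25 ± 0.13, the opposite sign, so the direction of SLC38A9 is unsettled.

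Among the less studied members, SLC38A6 had 8.22, 8.38 and 8.26 at 25 µg/mL and 7.83, 8.13 and 7.93 in medium. The difference was 0.32 ± 0.10 (SE), or -0.29 with poly-A scaling and -0.11 with hybridization scaling, and it did not pass without medium replicate 1 (0.25), medium replicate 3 (0.30) or 25 µg/mL replicate 2 (0.27). SLC38A11 was dim, with 4.17, 3.56 and 3.80 at 25 µg/mL and 4.35, 4.67 and 4.31 in medium. All of these values were below 4.75, and the difference was -0.60 ± 0.15. SLC38A10 had 6.85, 6.80 and 6.94 at 25 µg/mL and 6.76, 7.09 and 6.76 in medium, with overlapping ranges and a difference of -0.0077 ± 0.13, with a 95% interval of -0.29 to 0.27. Its 7 probe sets differed by -0.22 to 0.22 and 0 of them passed, and 5 of the 7 had means below 4.75.

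Over all 25 probe sets, 10 were higher at 25 µg/mL and 4 lower at the threshold, beside 12.5% and 13.4% of the 54613 non-control probe sets and 25.9% in all. The 10 were 4 of SLC38A7, 3 of SLC38A2, 2 of SLC38A1 and 1 of SLC38A6, and the 4 were 2 of SLC38A4 and 1 each of SLC38A3 and SLC38A11. Probe sets of 1 gene share their target and are not replicates. The means of 9 of the 25 lay below 4.75. The ranges of 25 µg/mL and medium did not overlap for 8 of the 9 representative probe sets, beside 45.7% of all genes, and the exception was SLC38A10.

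**Figure D2:**
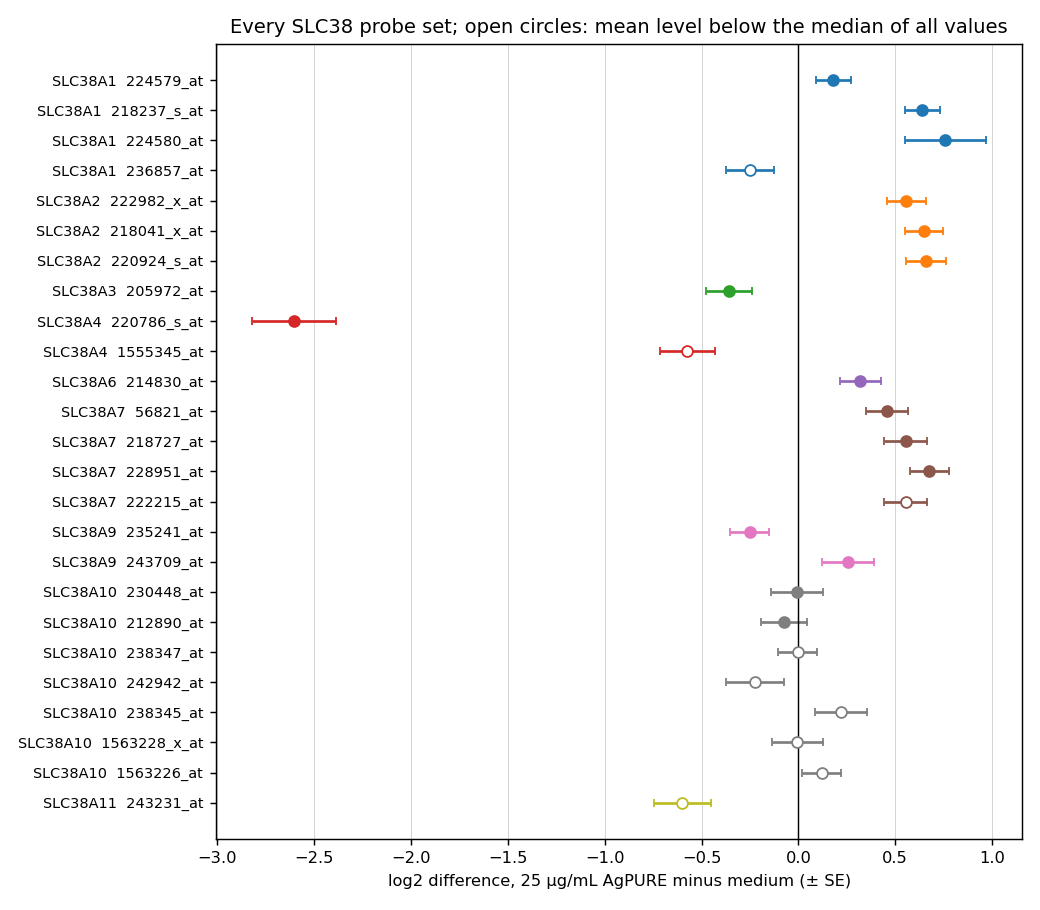
Log2 difference, 25 µg/mL nanoparticles minus medium (x axis, points with SE from limma), of all 25 SLC38 probe sets, with open circles for the 9 whose mean lies below 4.75. All 3 SLC38A2 and all 4 SLC38A7 probe sets lie to the right of 0 in the authors' normalization (their representatives lie at -0.055 and -0.16 under poly-A scaling). The SLC38A1, SLC38A9 and SLC38A10 probe sets lie on both sides.

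No SLC38 gene passed the threshold at the lower nanoparticle dose or under silver ions. By limma, 0 of the 9 genes had an adjusted p under 0.05 in either comparison, and 0 had an unadjusted p under 0.05. Over all genes 0% were called in both, with 900 genes at an unadjusted p under 0.05 for 2.5 µg/mL and 1233 for the ions. The fit with an intensity trend called 8 and 2 genes, hybridization scaling called 8 and 1, and the array-weight and unmoderated fits called 0. Under ions, the mean of probe sets and the fit without 25 µg/mL replicate 1 called 1 gene each. None of these was an SLC38 gene. Some alternatives put 1 SLC38 gene at an unadjusted p under 0.05 (limma) under ions, and the fit without medium replicate 2 put 2 there. Both comparisons share the medium arrays with the high-dose comparison and with each other. The 9 representative probe sets all overlapped in range with medium in both, beside 9.96% of genes at 2.5 µg/mL and 10.4% under ions whose ranges did not overlap. Among the other 16 probe sets, SLC38A1 218237_s_at lay above medium at 2.5 µg/mL, by 0.089, and SLC38A1 236857_at and SLC38A7 218727_at lay below it, by -0.18 and -0.12, beside 9.89% of all probe sets without overlap. Under ions SLC38A7 228951_at lay below medium, by -0.25, and SLC38A10 1563226_at above it, by 0.28, beside 11.0% of all probe sets. None of these 5 passed the threshold in the fit over probe sets.

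At 2.5 µg/mL the log2 differences of the 9 genes lay between -0.17 and 0.19, each with an adjusted p of 0.998 (limma). SLC38A4 had 6.89, 7.20 and 6.56 at 2.5 µg/mL, inside or just beyond the medium values of 6.65 to 7.31, a difference of -0.17 ± 0.22 (SE) with a 95% interval of -0.64 to 0.30. SLC38A2 had 12.25, 12.09 and 12.31 at 2.5 µg/mL against 11.95 to 12.18 in medium, a difference of 0.13 ± 0.09 and an interval of -0.07 to 0.33. The top of the 9 was SLC38A3, at 0.19 ± 0.12.

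Under silver ions the differences lay between -0.36 and 0.24, with adjusted p between 0.836 and 0.987 (limma). SLC38A4 had the most negative of them, with 6.26, 6.96 and 6.86 under ions against 6.65 to 7.31 in medium, a difference of -0.36 ± 0.22 (SE). Its interval of -0.83 to 0.11 includes 0, and ion replicate 1 is the low array. That array also had the lowest poly-A (4.95) and hybridization (10.29) control means of all arrays, and the part of this in its SLC38A4 value was not tested. SLC38A11 had 4.67, 4.58 and 4.79 under ions against 4.31 to 4.67 in medium, a difference of 0.24 ± 0.15, all near or below the median of all values. SLC38A2 differed by 0.10 ± 0.09 and SLC38A7 by -0.08 ± 0.10.

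**Figure D3:**
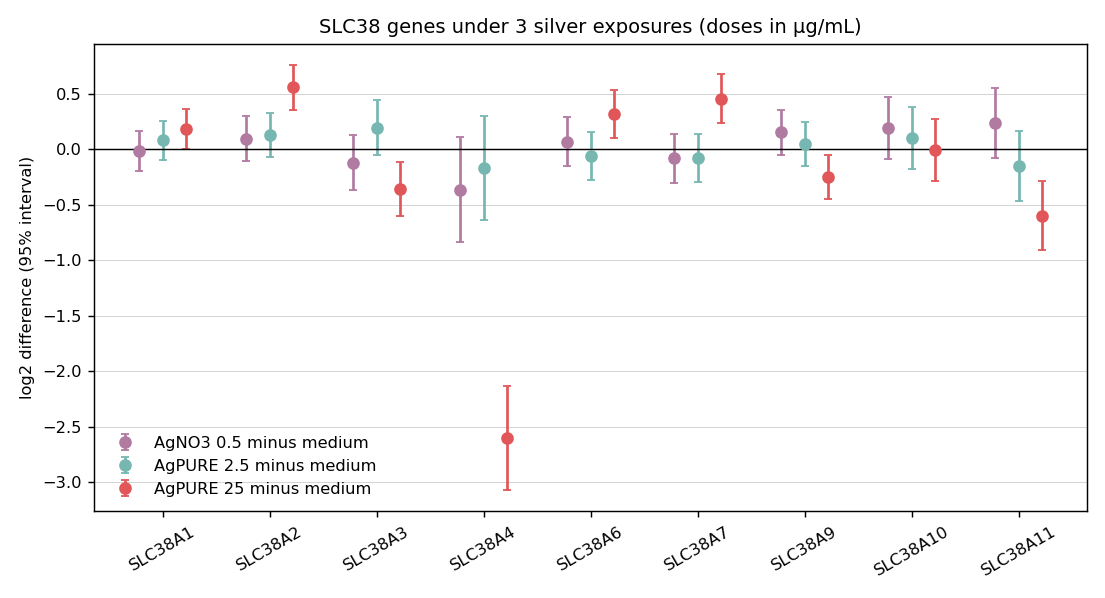
Log2 differences from medium (y axis, points with 95% intervals from limma) of the 9 SLC38 genes (x axis) under silver ions and both nanoparticle doses. The intervals of all 9 genes at 2.5 µg/mL and under ions include 0, and SLC38A4 at 25 µg/mL lies at -2.60.

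Across the dose series, SLC38A4 averaged 7.06 ± 0.35 with medium alone, 6.88 ± 0.32 at 2.5 µg/mL and 4.45 ± 0.31 at the 25 µg/mL dose; the ions, at 6.69 ± 0.38, stood between both nanoparticle doses (SDs over 3 arrays each). The 25 µg/mL range did not overlap with that of the ions, and the ions, the lower dose and medium overlapped. For SLC38A2, SLC38A6 and SLC38A7 the 25 µg/mL group was, in the authors' normalization and not under poly-A scaling, the highest and apart from the next group, and the other 3 groups overlapped. For SLC38A9 it was the lowest and apart from medium, next in order. Ranges of 25 and 2.5 µg/mL did not overlap for 45.3% of all genes, and those of 25 µg/mL and ions for 43.0%. For SLC38A1, SLC38A3, SLC38A10 and SLC38A11 all neighbours in the order overlapped.

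Between the nanoparticle doses, 3 SLC38 genes were called higher and 4 lower at 25 than at 2.5 µg/mL, beside 13.7% and 20.3% of all genes (34% in all), a comparison that again uses the high-dose arrays and is given as values only. SLC38A4 differed by -2.43 ± 0.22 (SE) and SLC38A3 by -0.55 ± 0.12. SLC38A11 differed by -0.45 ± 0.15 and did not pass without 2.5 µg/mL replicate 2 (-0.35) or 3 (-0.47) or without 25 µg/mL replicate 2 (-0.30) or 3 (-0.43), nor in the fit with no moderation. SLC38A9 differed by -0.30 ± 0.09, or by 0.093 on its most variable probe set, and did not pass without 2.5 µg/mL replicate 1 (-0.25) or 25 µg/mL replicate 3 (-0.28). SLC38A7 differed by 0.54 ± 0.10, SLC38A2 by 0.43 ± 0.09 and SLC38A6 by 0.38 ± 0.10, and under poly-A scaling these 3 were -0.21, -0.31 and -0.37. SLC38A1 differed by 0.10 and did not pass, but passed as higher with the mean of its probe sets (0.29) or the most variable one (0.57) and as lower with poly-A scaling (-0.65).

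The related lists were written with earlier results known. Of 21 amino acid carriers of other SLC families, 9 were called higher and 5 lower, with a median log2 difference of 0.19, beside 14.1% and 19.3% of all genes and their median of -0.012. The largest were SLC7A11, the cystine and glutamate exchanger (mean 10.85 ± 0.17 at 25 µg/mL against 9.31 ± 0.13 in medium, SD), which rose by 1.54 ± 0.13 (SE) on the log2 scale, SLC7A5, the large neutral amino acid exchanger (1.51 ± 0.09), and SLC1A4, a neutral amino acid exchanger (1.23 ± 0.17). All 3 stayed above 0 under poly-A scaling, at 0.93, 0.90 and 0.62.

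Of 14 measured genes of glutamine and glutamate metabolism, 2 were called higher and 5 lower at 25 µg/mL, with a median of -0.10, again beside 14.1% and 19.3% of all genes; the 7 calls became 12 with poly-A and 13 with hybridization scaling. OAT, ornithine aminotransferase, fell by 1.44 on the log2 scale (± 0.10 SE, 11.67 ± 0.07 at 25 µg/mL, 13.11 ± 0.05 in medium), and GLUD1, glutamate dehydrogenase, fell by 1.07 (± 0.12 SE). CTPS1, a CTP synthase that takes its nitrogen from glutamine, rose by 1.02 ± 0.10, or by 0.40, no longer past the threshold, with poly-A scaling. Around the lysosomal sensor SLC38A9, 6 of 21 measured genes of mTORC1 amino acid sensing were called higher and 7 lower, with a median of -0.07, beside the same 14.1% and 19.3%. SESN2, a leucine sensor, rose by 1.25 ± 0.15, and its relative SESN1 and the Rag GTPase gene RRAGD fell by 0.90 (± 0.09 SE) and 0.89 (± 0.08 SE). At 2.5 µg/mL and under ions 0 genes of the 3 lists were called.

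**Figure D4:**
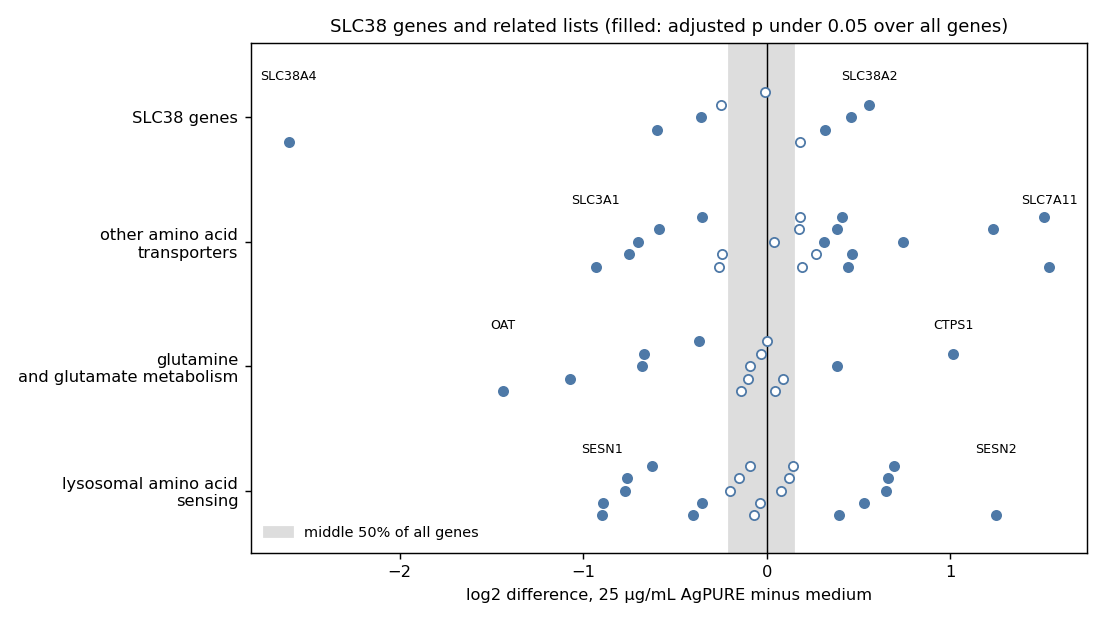
Log2 difference, 25 µg/mL nanoparticles minus medium (x axis), of the 9 SLC38 genes and 3 related lists (rows, points spread vertically for legibility), with the interquartile range of all genes (-0.21 to 0.15) in grey and filled points for genes past the threshold. SLC38A4 at -2.60 is the lowest point of the 4 rows, and SLC7A11 at 1.54 the highest.

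The 5 genes outside the family whose pattern over the 12 arrays was most like that of SLC38A4 were DGAT1, a triglyceride synthesis enzyme, FAM3B, a secreted cytokine-like protein, C12orf76, TECR, an enzyme of very long chain fatty acid synthesis, and NUDCD2, with Pearson r between 0.9924 and 0.9935. Without the 3 high-dose arrays, which set most of the pattern, r over the other 9 arrays was 0.879 to 0.943. At 25 µg/mL these genes differed from medium by -0.68 to -1.41, less than SLC38A4. Those most like SLC38A2 were PPP2CB, a catalytic subunit of protein phosphatase 2A, MTMR9, MMGT1, the efflux pump gene ABCG2 and the monooxygenase gene CYP1A1, with r between 0.9776 and 0.9868, and 0.862 to 0.963 over the 9 arrays. The points of each r share arrays and groups, the 10 genes were the top of a ranking over all genes, and no p is given.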

How the data were processed

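The authors deposited log2 expression values per probe set, with 1 column for each of the 12 arrays. The submitters' processing notes name RMA and Partek, without versions or settings. From the values, the scale is log2, higher means more signal, and probe sets were not centred; whether they were filtered or corrected further is unknown. The column medians lay between 4.72 and 4.79 and no 2 columns were identical. The table gives no detection calls.

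Of 54675 probe sets, 62 were controls, 41091 carried 1 gene symbol in GEO's platform annotation, 1801 more than 1 symbol and 11721 no listed symbol. By gene ID, 41037 symbols were brought up to date and 54 stayed as given. The brightest 1-symbol probe set on average stood for each of 19775 genes. These were fitted with limma 3.58.1 in R 4.3.3 in 1 model of 4 group means, with 8 residual and 6.25 prior degrees of freedom, and the threshold was a Benjamini-Hochberg adjusted p of 0.05, taken over every gene. All 54613 non-control probe sets were fitted separately in the same way. Errors of log2 differences are standard errors from limma. The model was tested on simulated data.

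The SLC38 genes and the 3 related lists were chosen with earlier results of these data known. Genes named were all SLC38 members, the 3 largest called differences of each list at 25 µg/mL, and the 5 genes most like SLC38A4 and SLC38A2 in pattern. Alternatives were quantile normalization, median centring, scaling each array by its 24 poly-A or its 18 hybridization controls, leaving out dim genes, the mean or the most variable of a gene's probe sets, fits with an intensity trend, array weights or no moderation, fits of only 2 groups, and dropping each array in turn. Figures were drawn with matplotlib 3.10.9.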

Additional observations from a re-analysis of the deposited data

How the results depend on the processing

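Limits first: 3 arrays a group set the precision, values near 4.75 have no stated background, and SLC38A3, SLC38A11 and the second SLC38A4 probe set lie near or below it. The count of SLC38 genes called stayed within 1.5 times of its reported value in all 4 comparisons under every alternative run, and that of SLC38 probe sets did so too (11 to 16 of 25, against 14 as reported). The members called were not always the same, as given beside SLC38A1, SLC38A3, SLC38A6, SLC38A9 and SLC38A11. At 25 µg/mL, SLC38A2, SLC38A6 and SLC38A7 were called under neither poly-A nor hybridization scaling, against medium or against 2.5 µg/mL. SLC38A9 also passed at 25 µg/mL against medium with median centring, an intensity trend, array weights or dim genes left out. It passed with poly-A (-0.86) or hybridization scaling (-0.68) as well. In the same comparison SLC38A10 passed with poly-A (-0.62) or hybridization scaling (-0.43), close to the medians of all genes under these scalings. For 25 µg/mL against medium, poly-A scaling turned SLC38A2 to -0.055, SLC38A6 to -0.29, SLC38A7 to -0.16, PPP2CB to -0.11 and MMGT1 to -0.11, and hybridization scaling turned SLC38A6 to -0.11. For 25 against 2.5 µg/mL, poly-A scaling turned SLC38A2 to -0.31, SLC38A6 to -0.37 and SLC38A7 to -0.21, and the most variable probe set turned SLC38A9 to 0.093. A scaling shifts every gene on an array by 1 amount, so the signs under scaling turned by construction; that of SLC38A9 turned because another probe set was read. Under poly-A scaling 0 SLC38 genes were called higher and 5 lower, and likewise under hybridization scaling, against 3 and 3 as reported; over all genes the calls at 25 µg/mL were 179 higher and 14081 lower under poly-A scaling and 508 higher and 12835 lower under hybridization scaling, against 2796 higher and 3811 lower as reported. The called genes of glutamine and glutamate metabolism came to 12 with poly-A and 13 with hybridization scaling, against 7 as reported. Leaving out 1 array at a time put SLC38A4 between -2.80 and -2.44 against medium. No paired analysis was possible because the labels carry no replicate numbers. Those used here only follow the order in which the arrays are listed within each group, and pair nothing across groups.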

Other observations

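Of the long non-coding genes annotated between SLC38A1 and SLC38A4 on chromosome 12, SLC38A2-AS1 and SLC38A4-AS1 were looked at here, and both differed little between 25 µg/mL and medium. SLC38A4-AS1 had log2 values of 4.90, 4.77 and 4.81 at 25 µg/mL and of 4.99, 4.85 and 4.82 in medium, a difference of -0.06 with overlapping ranges. The 2 probe sets of SLC38A2-AS1 differed by -0.020 and 0.0041, around means of 4.86 and 3.56 at 25 µg/mL and 4.87 and 3.55 in medium. All of these values lie near or below the median of all values, 4.75, so a difference would be hard to see at this signal. They were looked at after the values of SLC38A2 and SLC38A4 were seen, and no test was run.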
